A study of Mus musculus with 24 samples.

Results

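The livers of 8 mice fed trans-unsaturated fat (Trans) were compared with those of 8 mice fed cis-unsaturated fat (Cis), across every probe set of the array that names a single gene. These are 16 of the 24 livers measured, and the other 8, from mice fed saturated fat (Saturated), shared the estimate of the spread and are given beside some values. All mice were males of the C57BL/6J background, 4 to 6 months old, and each liver came from a different mouse with an array of its own. The comparison asks whether livers differ between a diet enriched in trans bonds and a diet enriched in cis bonds at the same total fat. By the authors' account the Trans diet held cis-unsaturated fatty acids too. In the Cis diet both mono- and polyunsaturated cis fatty acids took the place of the trans ones.

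The Trans diet drew its fat from partially hydrogenated soy oil, the Cis diet from canola and palm olein oil, and the Saturated diet from cocoa butter. All were modified forms of TestDiet 58V8 with 45% of the energy as fat, fed for 7 weeks, so the Cis group is itself a high-fat group and the fat sources differ in more than the geometry of a bond. The deposited values are log2 array values after robust multi-array average (RMA) normalization, a scale on which a difference of 1 is a doubling of the signal. Of 35556 probe sets, 21218 name a single gene, and they cover 18820 genes. Where a gene had several probe sets, the one with the highest mean over the livers stands for it. In bulk liver RNA, fewer cells of a type and less RNA per cell cannot be told apart.

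A trans double bond leaves the fatty acyl chain nearly straight, so that elaidate, the trans isomer of oleate, packs in membranes and esters more like a saturated fatty acid than its cis isomer does. Both isomers are activated to coenzyme A esters, oxidized in mitochondria and peroxisomes with the help of isomerases and reductases that deal with misplaced double bonds, and built into phospholipids, triglycerides and cholesterol esters. Liver is also the tissue in which sterol and lipid sensing transcription factors set the rate of fatty acid and cholesterol synthesis, and in which fat overload is accompanied by injury, recruited macrophages and matrix deposition.

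The arrays were of liver by their markers. All 12 measured hepatocyte markers lay above a mean signal of 20, and Alb, which codes for albumin, had a mean log2 value of 12.97 in both groups, with a log2 difference of 0.00 (95% confidence interval −0.08 to 0.09). Each array was correlated with the remaining 23, and the median of these correlations lay between 0.975 and 0.986 and was lowest in Trans replicate 4. There were 0 pairs of identical arrays.

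Sequences are shown for the gene with the widest gap and for Mt2 and Mt1, which were among the genes chosen by size. Mir27b had the largest gap between the groups of all genes, and its mature products are shown with the related microRNAs of its own cluster and of the cluster on another chromosome, since a shared seed means shared potential targets. Capitals mark the seed, bases 2 to 8 from the 5′ end, and the sequences are those of RefSeq on GRCm38.p6. On the plus strand, miR-27b-3p lies at chr13:63300760-63300780, miR-27b-5p at chr13:63300718-63300739, miR-23b-5p at chr13:63300492-63300512 and miR-24-3p at chr13:63301251-63301272, while miR-27a-3p lies at chr8:84208727-84208747. The seeds of miR-27b-3p and miR-27a-3p are the same.
mmu-miR-27b-3p: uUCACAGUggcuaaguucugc
mmu-miR-27b-5p: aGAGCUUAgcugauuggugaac
mmu-miR-27a-3p: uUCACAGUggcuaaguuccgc
mmu-miR-24-3p: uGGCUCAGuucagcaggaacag
mmu-miR-23b-5p: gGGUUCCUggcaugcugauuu

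Mt2 and Mt1, neighbours on chromosome 8 that code for metallothioneins, had the largest and the third largest higher mean in Trans among the genes chosen by size, and the 250 bases before the start of each are shown because both had a higher mean. Metallothioneins bind zinc and copper, and their genes are driven by a zinc-sensing factor that binds metal response elements, as well as by glucocorticoids and inflammatory signals. Capitals mark the core of the metal response element, searched as TGCACNC and TGCGCNC on both strands. The Mt2 stretch lies at chr8:94172368-94172617 and the Mt1 stretch at chr8:94178839-94179088, both on the plus strand of GRCm38.p6 (RefSeq).
Mt2: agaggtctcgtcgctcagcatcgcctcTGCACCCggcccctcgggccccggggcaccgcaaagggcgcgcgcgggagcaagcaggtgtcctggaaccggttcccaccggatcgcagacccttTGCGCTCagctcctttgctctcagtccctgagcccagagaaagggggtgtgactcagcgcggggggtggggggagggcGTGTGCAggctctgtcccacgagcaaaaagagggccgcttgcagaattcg
Mt1: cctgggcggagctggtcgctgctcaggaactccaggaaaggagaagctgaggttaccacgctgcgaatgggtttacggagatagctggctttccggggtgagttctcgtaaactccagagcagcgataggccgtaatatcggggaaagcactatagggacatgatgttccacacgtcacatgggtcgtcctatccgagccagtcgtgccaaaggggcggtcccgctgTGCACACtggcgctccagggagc
The Mt2 stretch holds 3 such cores and the Mt1 stretch 1. Only the 250 bases before the annotated RefSeq start were searched, so cores outside them are not counted. The counts are therefore not those of the whole promoters. At least 1 core was found in 21.4% of the 32851 promoter stretches of this length, and at least 3 in 1.26%, so the match in Mt1 is common.

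No single gene separated Trans from Cis livers beyond the threshold set for all probe sets. With limma and Benjamini-Hochberg adjustment over all probe sets, 1 probe set of 35556 was called at an adjusted p under 0.05 (0.00281%), and it names no gene. Of the 21218 probe sets that name a single gene, 0 were called (0%), and the smallest adjusted p was 0.182, shared by Dnmt3a and Mir27b. At an unadjusted p under 0.05, 658 of 18820 genes were higher in the mean of Trans (3.5%) and 562 were lower (2.99%). A higher mean in Trans, with no test, was found for 9499 genes (50.5%), and the median log2 difference over all genes was 0.00. Since no named gene was called, the differences below are described by their values, and none is a called change.

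The arrays were precise enough to bound most of these differences. Among the 8298 genes with a mean signal over 20, the 95% confidence interval had a median width of 0.18 to either side of the log2 difference, which corresponds to 1.13-fold. The whole interval lay within 1.5-fold in either direction for 7879 of them (95%). A difference above 1.5-fold was seen in 34 of these genes. The plot of all genes shows how few points lie away from the bulk.

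**Figure D1:**
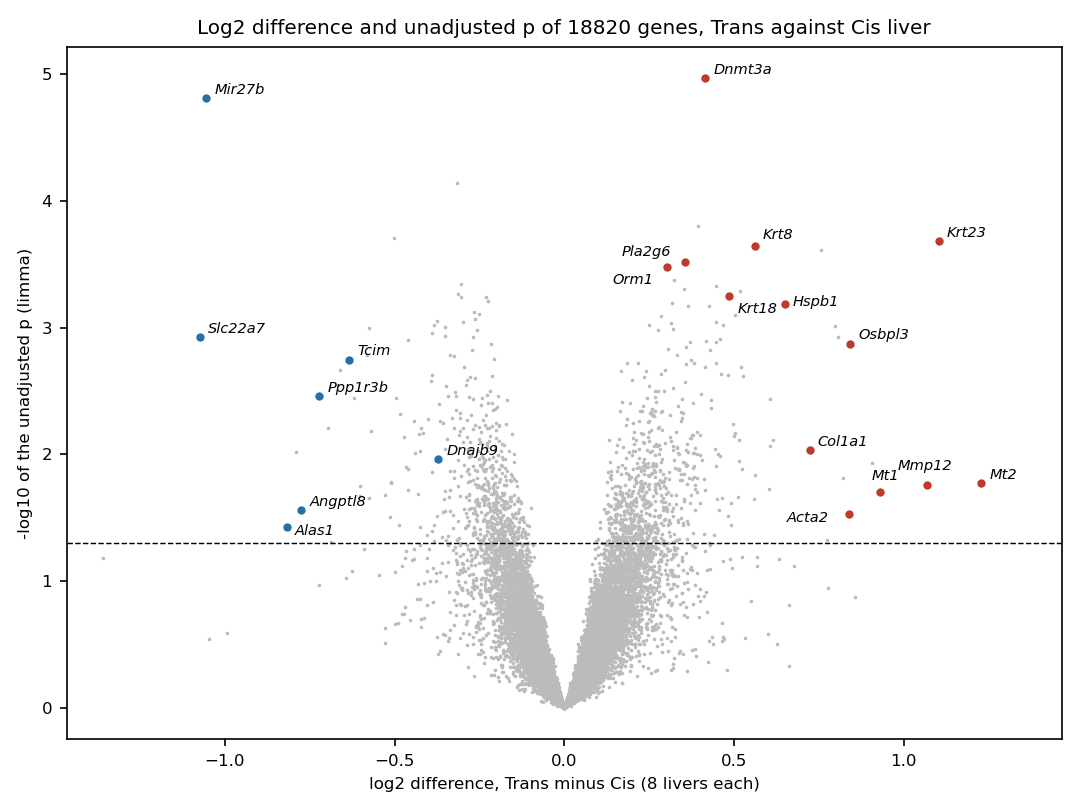
Log2 difference of Trans against Cis (horizontal) and the negative log10 of the unadjusted p from limma (vertical) for 18820 genes, each a point; the dashed line marks a p of 0.05, and named genes are red where the mean was higher in Trans and blue where it was lower. Dnmt3a and Mir27b lie highest, on opposite sides, and most genes lie within 1.5-fold.

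In 7 genes the 8 Trans livers did not overlap with the 8 Cis livers, 3 of them higher in Trans (0.0159% of genes) and 4 lower (0.0213%). The higher genes were Hspb1, Dnmt3a and Krt23, and the lower genes were Mir27b, Dnajb9, Olfr267 and Alppl2. Olfr267, an olfactory receptor gene, and Alppl2, a placental-type alkaline phosphatase, were named only to complete the count. Both had a mean signal under 20, as did Krt23 and Mir27b, which are described below.

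Dnmt3a, a methyltransferase that places new methyl groups on DNA, separated the groups by a small amount. In Trans its log2 values ran from 5.03 to 5.44 with a median of 5.16, and in Cis from 4.60 to 4.99 with a median of 4.74. All Trans livers lay above all Cis livers. The log2 difference was 0.41 (standard error 0.07, adjusted p = 0.182, limma), or 1.33-fold, and the Saturated livers had a mean of 4.91 ± 0.15 (SD, n = 8), between the other groups. The other methyltransferase genes, chosen after these values were seen, had log2 differences of 0.06 for Dnmt1 (interval −0.09 to 0.21), which copies methylation at replication, and −0.04 for Dnmt3b (−0.29 to 0.21), a second methyltransferase of unmethylated sites. Dnmt3a was not called under any of the alternatives, where its adjusted p ran from 0.0743 to 0.504.

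Hspb1, a small heat shock protein that binds unfolded proteins and actin filaments, was also separated. Trans livers ran from 6.07 to 6.72 with a median of 6.31, and Cis livers from 4.70 to 6.00 with a median of 5.95. Cis replicate 7 was far below the other Cis livers, and most Cis livers were close to the lower edge of the Trans range. The log2 difference was 0.65 (standard error 0.17, adjusted p = 0.55, limma). Another Hspb1 probe set, also without overlap, gave a log2 difference of 0.62, and the remaining one, of low signal, 0.03.

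Keratins of simple epithelia stood together among the genes with a higher mean in Trans. Krt8 and Krt18 form the intermediate filaments of hepatocytes and bile duct cells, while Krt7 and Krt19 mark bile duct cells. Krt23, a type I keratin of low signal in these livers, ran from 4.39 to 5.54 in Trans (median 5.17) and from 3.43 to 4.33 in Cis (median 4.02), with no overlap. Its log2 difference of 1.10 (interval 0.58 to 1.62, adjusted p = 0.55, limma) is 2.15-fold, and in Saturated its mean was lower again, 3.27 ± 0.73 (SD, n = 8).

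Krt8 ran from 8.67 to 9.64 in Trans (median 8.99) and from 8.08 to 8.95 in Cis (median 8.41). The groups overlapped, 4 Trans livers lay above all Cis livers, and Trans replicate 1 was the highest. The log2 difference was 0.56 (interval 0.29 to 0.83, adjusted p = 0.55, limma). Krt18 ran from 8.47 to 9.32 in Trans (median 8.76) and from 8.02 to 8.86 in Cis (median 8.25), with a log2 difference of 0.49 (interval 0.23 to 0.74, adjusted p = 0.55, limma). For both keratins all 8 Trans livers lay above the Cis mean.

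Of the bile duct markers, Krt19, Krt7 and Sox9 had intervals that spanned no difference, and they do not stand for the other members of their list. Krt19 had a log2 difference of 0.13 (interval −0.31 to 0.57), Krt7 −0.03 (−0.32 to 0.25) and Sox9, a transcription factor of bile duct cells, 0.04 (−0.44 to 0.53). Krt19 was highest in Trans replicate 4, at 4.20, against 3.07 in the highest Cis liver. Over the 10 measured genes of the list of cholangiocyte and epithelial markers, 8 were higher in the mean of Trans, 3 of them (30%, against 3.5% of all genes) at an unadjusted p under 0.05 (limma), and the median log2 difference was 0.21. Those 3 were Krt23, Krt8 and Krt18, the keratins described above, and the list was written with earlier results of these data known. The share therefore restates these genes and does not stand for the bile duct markers. The list median was 0.11 without Trans replicate 4. Over the 3 members with a mean signal over 20, which were Krt8, Krt18 and Sox9, it was 0.49, the value of Krt18.

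Mir27b, a microRNA gene whose products target transcripts of lipid metabolism, had the widest gap between the groups. Its probe set was of low signal and ran from 2.51 to 3.05 in Trans (median 2.73) and from 3.26 to 4.52 in Cis (median 3.78). All Trans livers lay below all Cis livers. The Saturated mean of 3.32 ± 0.55 (SD, n = 8) lay between, but the Saturated livers, from 2.21 to 3.85, overlapped with both groups. The Trans mean of 2.75 lay under the lowest array median, 2.94. The log2 difference was −1.06 (standard error 0.20, adjusted p = 0.182, limma). The array gives no way to tell here whether the probe set reports the mature products printed above, the hairpin or the primary transcript.

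The neighbours of Mir27b in the cluster on chromosome 13 had lower means as well, by less. Mir24-1 had a log2 difference of −0.39 (interval −0.63 to −0.15), with all 8 Trans livers below the Cis mean, and Mir23b one of −0.21 (−0.44 to 0.02). The gene that spans the cluster, Aopep, which codes for an aminopeptidase, had a log2 difference of 0.02 (−0.15 to 0.19). The related cluster on chromosome 8 had −0.06 for Mir27a (−0.28 to 0.16), which shares the seed of the 3p product, 0.10 for Mir24-2 (−0.12 to 0.31) and −0.08 for Mir23a (−0.31 to 0.15). All 7 probe sets had a mean signal under 20, and the microRNA neighbours and Aopep were chosen after the Mir27b value was seen.

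**Figure D2:**
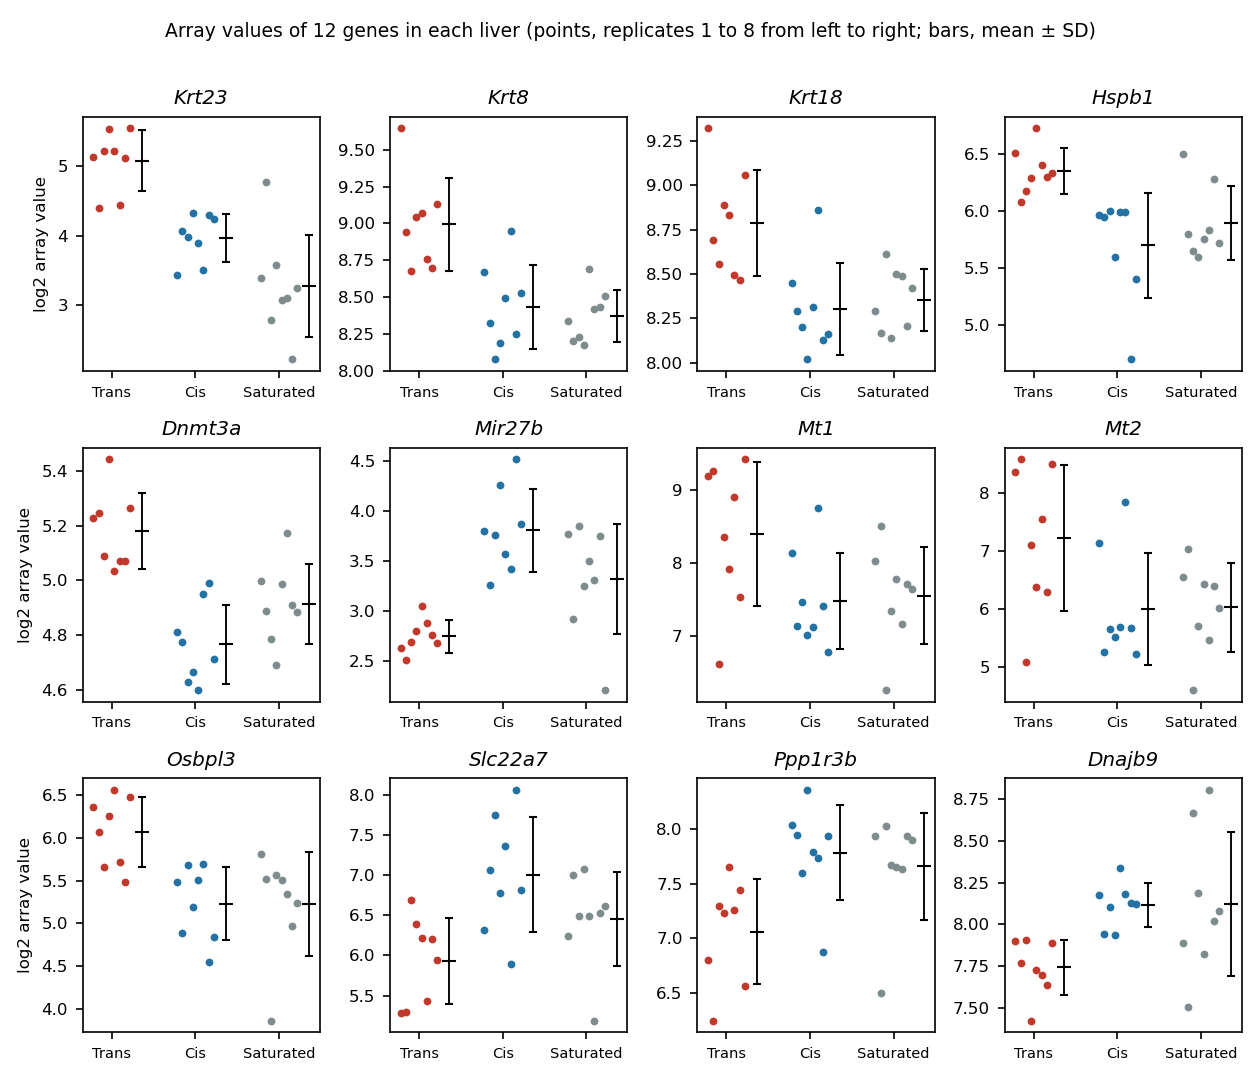
Log2 array values of 12 genes in each of the 24 livers, with points for replicates 1 to 8 of the Trans, Cis and Saturated groups from left to right and bars for the mean ± SD; each panel has its own vertical scale. In Krt23, Hspb1 and Dnmt3a every Trans liver lies above every Cis liver, and in Mir27b and Dnajb9 every Trans liver lies below, while the metallothioneins spread widely within each group.

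The metallothionein genes, whose promoters are shown above, varied widely among livers of the same diet. Mt2 ran from 5.07 to 8.58 in Trans (median 7.32) and from 5.23 to 7.84 in Cis (median 5.65). Trans replicate 3 had the lowest value of all 16, and the other 7 Trans livers exceeded the Cis mean. The log2 difference was 1.23 (interval 0.24 to 2.22, adjusted p = 0.766, limma). Mt1, with the same lowest Trans and highest Cis liver, ran from 6.61 to 9.43 in Trans (median 8.64) and from 6.77 to 8.75 in Cis (median 7.27), with a log2 difference of 0.93 (interval 0.16 to 1.70, adjusted p = 0.773, limma). Mt3, the metallothionein of brain, had 0.27 (0.02 to 0.51), and Mt4, that of stratified epithelium, 0.02 (−0.16 to 0.19), both at low signal.

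Osbpl3, an oxysterol-binding protein family member that moves lipids between membranes, ran from 5.49 to 6.56 in Trans (median 6.16) and from 4.55 to 5.69 in Cis (median 5.33). Of the Trans livers 6 lay above all Cis livers, and the log2 difference was 0.84 (interval 0.36 to 1.32, adjusted p = 0.561, limma). Dhrs9, a retinol and steroid dehydrogenase, had a log2 difference of 0.91 (0.22 to 1.59), with all 8 Trans livers above the Cis mean, although Cis replicate 6 reached the highest Trans value to 2 decimals. In Saturated livers Dhrs9 had a mean of 4.71, close to the Trans mean of 4.72.

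S100a11, a calcium-binding protein of growing and injured cells, had a log2 difference of 0.62 (0.18 to 1.05) and 0.57 at its other probe set. Mmp12, the elastase of macrophages, had 1.07 (0.21 to 1.93), with values from 3.64 to 6.69 in Trans and from 3.06 to 5.76 in Cis. The highest values of both genes were in Trans replicate 1 among the Trans livers and in Cis replicate 6 among the Cis livers.

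Among genes chosen after their values were seen, 4 more had a higher mean in Trans in all 8 livers relative to the Cis mean. They were Khnyn, an RNA-binding nuclease (log2 difference 0.39, interval 0.21 to 0.57), Tifa, an adaptor of NF-κB signalling (0.47, 0.21 to 0.72), Ccdc80, a secreted matrix protein (0.46, 0.20 to 0.72), and Rdh9, a retinol dehydrogenase (0.48, 0.19 to 0.77). Their adjusted p values lay between 0.55 and 0.635 (limma).

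Among the genes chosen by size, Slc22a7, an organic anion transporter of the hepatocyte surface, had the largest lower mean in Trans. It ran from 5.29 to 6.69 in Trans (median 6.07) and from 5.89 to 8.06 in Cis (median 6.94). No Trans liver lay above the Cis mean, and the log2 difference was −1.07 (interval −1.68 to −0.47, adjusted p = 0.556, limma), or 2.11-fold. Ppp1r3b, which targets a protein phosphatase to glycogen and so favours glycogen synthesis, ran from 6.24 to 7.65 in Trans (median 7.25) and from 6.87 to 8.36 in Cis (median 7.87), with a log2 difference of −0.72 (−1.18 to −0.26, adjusted p = 0.647, limma). The Saturated mean of Ppp1r3b, 7.66 ± 0.49 (SD, n = 8), was close to that of Cis, 7.78 ± 0.43 (SD, n = 8).

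Alas1, the first enzyme of haem synthesis, had a log2 difference of −0.82 (−1.59 to −0.05), and Tfrc, the transferrin receptor that takes up iron, −0.62 (−1.01 to −0.22). Angptl8, a feeding-induced inhibitor of lipoprotein lipase activity, had −0.77 (−1.46 to −0.09). In Angptl8 no Trans liver lay above the Cis mean, and Trans values had a narrower range, 7.49 to 8.75, than Cis values, 7.80 to 10.02. Mmd2, a membrane receptor family member of Golgi, had −0.79 (−1.37 to −0.21), Celsr1, an adhesion cadherin of planar polarity, −0.66 (−1.06 to −0.26), and Tcim, a regulator of transcription, −0.63 (−1.01 to −0.26).

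For Tcim 7 of 8 Trans livers lay below all Cis livers, and for Celsr1 6 of 8. Tedc2, a centriolar protein, had −0.58 (−0.92 to −0.24). Scarna13, a small RNA of Cajal bodies, had −0.69 (−1.38 to −0.00), with the highest Cis liver at 7.64 against a Cis median of 5.55. Urad, an enzyme of urate breakdown chosen after its value was seen, had −0.46 (−0.72 to −0.20), and Rprl3, a ribonuclease P RNA-like gene chosen in the same way, −0.32 (−0.45 to −0.18).

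Enzymes that deal specifically with unsaturated fatty acids showed narrow intervals around no difference. Eci1 and Eci2 shift a double bond at position 3 to position 2, Decr1 and Decr2 reduce conjugated double bonds, and Ech1 moves conjugated dienes. Of the 7 measured genes of this auxiliary oxidation list 5 were higher in the mean of Trans, 0 passed an unadjusted p of 0.05 in either direction (limma), and the median log2 difference was 0.01, with a range of −0.11 to 0.03. Eci1, which also accepts trans bonds, ran from 7.71 to 8.18 in Trans (median 7.84) and from 7.55 to 8.08 in Cis (median 7.85), and its log2 difference was 0.03 (interval −0.13 to 0.19). Decr1 ran from 9.17 to 9.59 in Trans (median 9.31) and from 9.13 to 9.46 in Cis (median 9.32), with 0.02 (−0.13 to 0.17). For both enzymes the groups lay over each other, and the intervals bound the difference to less than 1.5-fold.

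Mitochondrial β-oxidation was as narrow. Of 15 measured genes 10 were higher in the mean of Trans, and the median log2 difference was 0.02, with a range of −0.07 to 0.10 and 0 at an unadjusted p under 0.05 (limma). Acadm, the medium-chain acyl-CoA dehydrogenase, had 0.10 (−0.03 to 0.23), and Cpt1a, which commits acyl groups to the mitochondrion, 0.04 (−0.12 to 0.21). In peroxisomal oxidation 8 of 13 genes were higher and the median was 0.04, or 0.01 without Trans replicate 6. Only Ehhadh, the bifunctional enzyme, passed an unadjusted p of 0.05 (7.69% of the list, against 3.5% of all genes). Ehhadh ran from 9.60 to 10.59 in Trans and from 9.42 to 9.80 in Cis, with 5 Trans livers above all Cis livers and a log2 difference of 0.29 (0.03 to 0.55, adjusted p = 0.802, limma).

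Targets of PPARα, the receptor through which fatty acids induce their own oxidation, were higher in the mean of Trans in 11 of 15 cases, and their median log2 difference was 0.16. That median was 0.07 without Trans replicate 6, the highest liver for this list. A single member (6.67%, against 3.5% of all genes) passed an unadjusted p of 0.05 (limma). It was Txnip, an arrestin family protein that restrains glucose uptake, with 0.29 (0.04 to 0.54). Cd36, a fatty acid transporter, had 0.33 (−0.06 to 0.73), and Plin2, the coat protein of lipid droplets, 0.24 (−0.02 to 0.50), while Angptl4, an inhibitor of lipoprotein lipase, had −0.28 (−1.09 to 0.52). Ppara itself had 0.13 (−0.06 to 0.32).

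Desaturases and elongases, which set chain length and the number of cis bonds, were higher in the mean of Trans in 13 of 16 cases, and their median log2 difference was 0.08. Scd2, a stearoyl-CoA desaturase that is low in adult liver, ran from 5.23 to 6.18 in Trans (median 5.63) and from 4.37 to 5.82 in Cis (median 5.05). All 8 Trans livers lay above the Cis mean, the ranges overlapped, and the log2 difference was 0.61 (interval 0.17 to 1.04, adjusted p = 0.723, limma). Scd1, the main hepatic desaturase, was bounded closely, with 0.12 (−0.03 to 0.28). Elovl2, an elongase of polyunsaturated chains, had 0.18 (0.00 to 0.36) and was the other member at an unadjusted p under 0.05. These 2 members are 12.5% of the list, against 3.5% of all genes.

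Elovl6, which elongates palmitate, went against the list, with a log2 difference of −0.55 (−1.19 to 0.09). It ran from 8.46 to 9.73 in Trans (median 9.16) and from 8.44 to 10.42 in Cis (median 9.83), and a single Trans liver of the 8 exceeded the Cis mean. The lowest Cis liver of Elovl6, replicate 7, also had the lowest Fasn, Thrsp and G6pc of its group. Fads1 and Fads2, the desaturases of polyunsaturated chains, had 0.07 (−0.15 to 0.28) and 0.14 (−0.10 to 0.39).

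**Figure D3:**
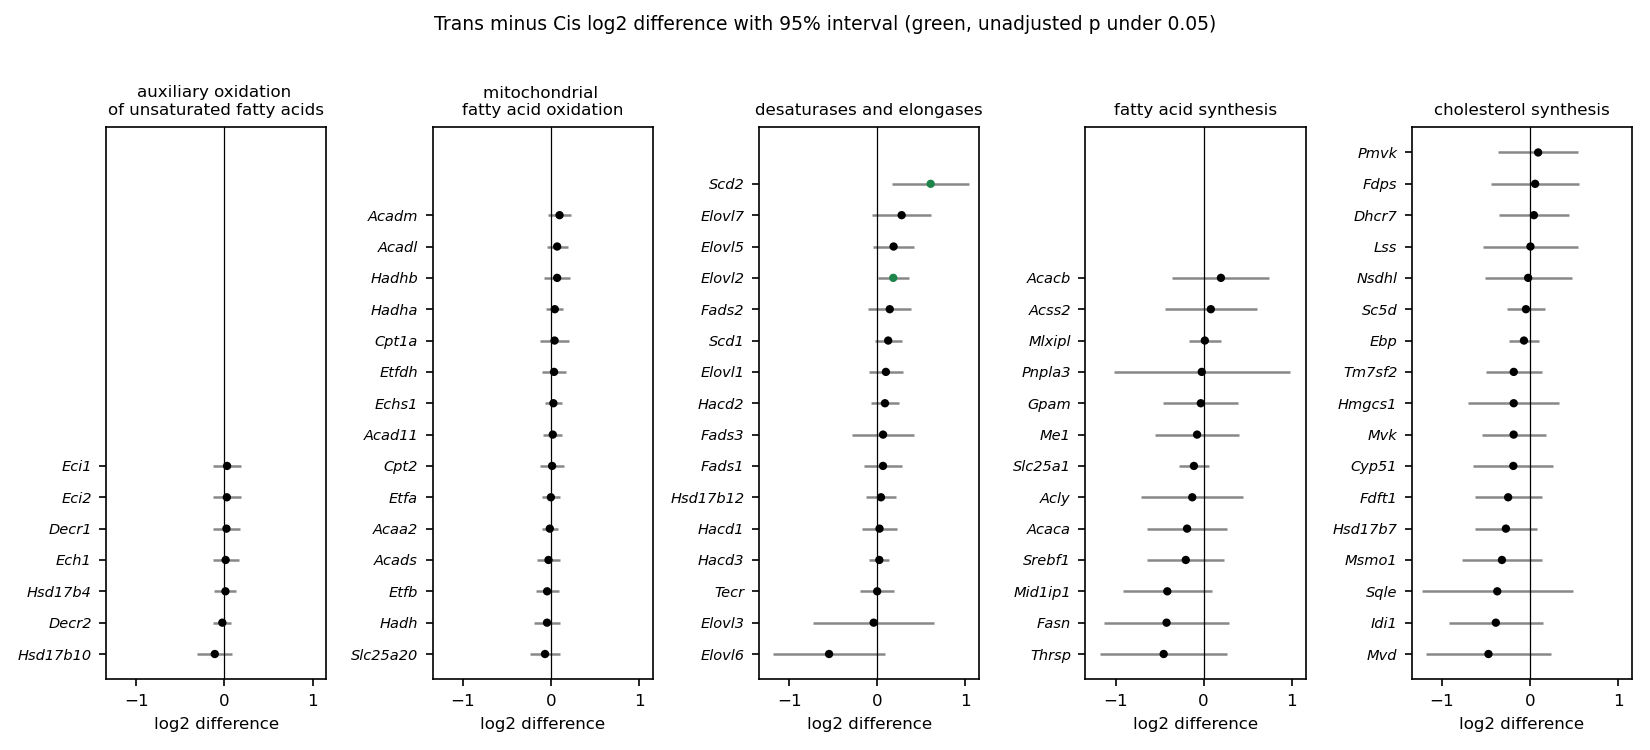
Log2 difference of Trans against Cis (points) with its 95% confidence interval (lines) for the measured genes of 5 lipid lists, from limma; green points have an unadjusted p under 0.05 and the vertical line marks no difference. Intervals are narrow for the 7 genes of auxiliary oxidation and the 15 of mitochondrial oxidation, and wide for fatty acid and cholesterol synthesis.

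Fatty acid synthesis varied widely among livers of both groups, and 10 of 13 genes had a lower mean in Trans. The median log2 difference was −0.11, 0 genes passed an unadjusted p of 0.05 (limma), and the intervals were wide. Fasn, the fatty acid synthase, ran from 9.48 to 10.68 in Trans (median 9.79) and from 8.51 to 11.08 in Cis (median 10.55). The Cis livers held both the highest and the lowest value, the lowest being replicate 7, and the log2 difference was −0.42 (−1.13 to 0.29). Thrsp, a lipogenic cofactor, had −0.45 (−1.17 to 0.26), and Srebf1, the transcription factor that drives this pathway, −0.20 (−0.64 to 0.24). The median of the list was −0.25 without Cis replicate 7 and −0.05 without Cis replicate 4.

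In cholesterol synthesis 13 of 17 genes were lower in the mean of Trans. The median log2 difference was −0.19, with 0 genes at an unadjusted p under 0.05 (limma). Sqle, the squalene epoxidase, ran from 4.90 to 7.34 in Trans (median 6.77) and from 6.15 to 7.95 in Cis (median 6.73), so the medians were close. The lowest Trans liver, replicate 4, lay below all Cis livers and the highest Cis liver, replicate 6, above all Trans livers, and the log2 difference was −0.37 (−1.23 to 0.48). Idi1, the isopentenyl diphosphate isomerase, had −0.39 (−0.92 to 0.15), with 7 of 8 Trans livers below the Cis mean. Fdft1, squalene synthase, had −0.25 (−0.63 to 0.13), and Msmo1, a sterol methyl oxidase, −0.32 (−0.77 to 0.13). Lss, lanosterol synthase, had 0.00 (−0.53 to 0.54).

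The mean of the cholesterol list, relative to the Cis mean, ran from −0.71 to 0.28 in Trans and from −0.61 to 0.52 in Cis, and 3 of the 8 Trans livers exceeded the Cis mean. Without Trans replicate 4 the median log2 difference was −0.12, without Cis replicate 1 it was also −0.12, and without Cis replicate 6 it was −0.10. Srebf2, the transcription factor of this pathway, had −0.01 (−0.24 to 0.22), and Insig1, which retains that factor in the endoplasmic reticulum, −0.18 (−0.59 to 0.24). The list of sterol sensors and uptake receptors held 11 measured genes, 7 of them higher, and a median of 0.03, and Npc1, which exports cholesterol from lysosomes, had 0.18 (−0.01 to 0.38). Of 9 targets of the sterol receptor LXR 6 were higher, their median was 0.12, and 0 genes of either list passed an unadjusted p of 0.05 (limma).

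Of 17 genes of phospholipid acyl remodelling 11 were higher in the mean of Trans, and 3 (17.6% of the list, against 3.5% of all genes) passed an unadjusted p of 0.05. Pla2g6, a calcium-independent phospholipase that releases acyl chains from membranes, ran from 6.85 to 7.33 in Trans (median 7.15) and from 6.51 to 7.08 in Cis (median 6.75). All 8 Trans livers lay above the Cis mean and 5 lay above all Cis livers, with a log2 difference of 0.35 (0.18 to 0.53, adjusted p = 0.55, limma). Agpat3, a lysophosphatidic acid acyltransferase, had 0.14 (0.03 to 0.24), Mboat1, a lysophospholipid acyltransferase of low signal, 0.28 (0.01 to 0.56), and Lpcat3, the main hepatic enzyme that places polyunsaturated chains in phosphatidylcholine, 0.13 (−0.04 to 0.31).

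Among genes of lipid droplets and lipases 15 of 24 had a higher mean, and the median was 0.05. Hsd17b11, a lipid droplet dehydrogenase, had 0.22 (0.07 to 0.37), with all 8 Trans livers above the Cis mean, and Plin3, a droplet coat protein, 0.29 (0.06 to 0.52). Dgat2, which makes triglyceride, had −0.23 (−0.43 to −0.04), and no Trans liver lay above its Cis mean. Of 13 uptake and binding proteins 11 were higher, the median was 0.09 (0.05 without Cis replicate 2), and 0 passed an unadjusted p of 0.05 (limma). Fabp5, a fatty acid binding protein of macrophages and stressed hepatocytes, had 0.66 (−0.27 to 1.60), while its other probe sets gave 0.69 and, at low signal, 0.33.

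Apolipoproteins and genes of lipoprotein assembly had a median of −0.02 over 16 genes, 6 of them higher, with a range of −0.27 to 0.34. Apoc2, the activator of lipoprotein lipase, had 0.20 (0.04 to 0.35). It alone passed an unadjusted p of 0.05 (6.25% of the list, against 3.5% of all genes). Acyl-CoA thioesterases had a higher mean in 4 of 11 genes and a median of −0.07. Bile acid synthesis and transport held 17 genes, 5 of them higher, with a median of −0.08 (−0.03 without Trans replicate 4) and 0 at an unadjusted p under 0.05 (limma). Cyp7a1, the rate-limiting enzyme of bile acid synthesis, had −0.14 (−0.78 to 0.51), and Nr0b2, the repressor induced by bile acids, −0.28 (−0.57 to 0.01).

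Most matrix and mesenchymal genes had a higher mean in Trans. Of 20 measured genes of activated stellate cells and matrix, 19 were higher in the mean of Trans and 6 (30%, against 3.5% of all genes) passed an unadjusted p of 0.05 (limma). Their median log2 difference was 0.24. Of 12 smooth muscle markers 11 were higher and 4 (33.3%, against the same 3.5%) passed, and the median was 0.30. It was 0.10 over the 4 of them with a mean signal over 20. Of 22 collagen chains 17 were higher and 5 (22.7%, against 3.5%) passed, and the median was 0.10, or 0.24 over the 9 chains with a mean signal over 20 and 0.06 without Trans replicate 4 and Cis replicates 7 and 8. A gene can stand in several lists, as Acta2 and Tagln do here.

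Col1a1, the chain that makes up most scar collagen, ran from 4.41 to 6.48 in Trans (median 5.26) and from 3.95 to 5.57 in Cis (median 4.49). Of the Trans livers 7 lay above the Cis mean, 2 lay above all Cis livers, and the log2 difference was 0.72 (0.20 to 1.25, adjusted p = 0.723, limma). Col3a1, the chain that accompanies it in fibrils, had 0.56 (0.12 to 1.00). The basement membrane chains had smaller values, 0.24 for Col4a2 (0.03 to 0.45) and 0.22 for Col4a1 (−0.00 to 0.45), and the beaded filament chains 0.37 for Col6a2 (0.05 to 0.69) and 0.38 for Col6a3 (0.02 to 0.74).

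Lum, a proteoglycan of collagen fibrils, ran from 4.00 to 5.49 in Trans (median 4.55) and from 3.72 to 4.53 in Cis (median 3.96), with a log2 difference of 0.53 (0.21 to 0.85, adjusted p = 0.635, limma). Vim, the intermediate filament of mesenchymal cells, had 0.45 (0.12 to 0.79), Timp2, an inhibitor of matrix proteases, 0.39 (0.08 to 0.70), and Pdgfrb, the growth factor receptor of stellate cells and pericytes, 0.29 (0.04 to 0.54). Fn1, fibronectin, which hepatocytes also secrete, was the member with a lower mean, −0.06 (−0.16 to 0.03).

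Acta2, the smooth muscle actin of activated stellate cells and vessel walls, ran from 4.09 to 6.84 in Trans (median 4.72) and from 3.82 to 5.38 in Cis (median 4.22). Of the Trans livers 3 lay above all Cis livers and 5 above the Cis mean, and the log2 difference was 0.84 (0.09 to 1.59, adjusted p = 0.802, limma). Tagln, an actin-binding protein of smooth muscle, had 0.56 (0.09 to 1.03), and Synpo2, a protein of contractile filaments, 0.41 (0.10 to 0.71) at low signal. Tgfb1, the cytokine that drives matrix synthesis, had 0.02 (−0.23 to 0.28).

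These groups rested in good part on 2 Trans livers. The mean of the stellate and matrix list, relative to the Cis mean, was 0.96 in Trans replicate 1 and 0.73 in Trans replicate 4, while the other 6 Trans livers ran from −0.10 to 0.41 and the Cis livers from −0.24 to 0.27. For smooth muscle the same 2 livers had 0.94 and 1.00, against at most 0.46 in the other Trans livers. The median log2 difference of the stellate and matrix list was 0.15 without Trans replicate 1 and 0.20 without Trans replicate 4, and that of smooth muscle was 0.19 and 0.21. The median of the collagen chains was 0.06 without Trans replicate 4 and 0.06 without Cis replicate 7. Trans replicate 4 also had the highest mean among the Trans livers of adipocyte markers (0.63), striated muscle markers (0.31) and bile duct and epithelial markers (0.75), and the part of such tissue in these values was not tested. Of the 6 adipocyte markers 1 had a mean signal over 20, and of the 6 striated muscle markers 0 did.

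**Figure D4:**
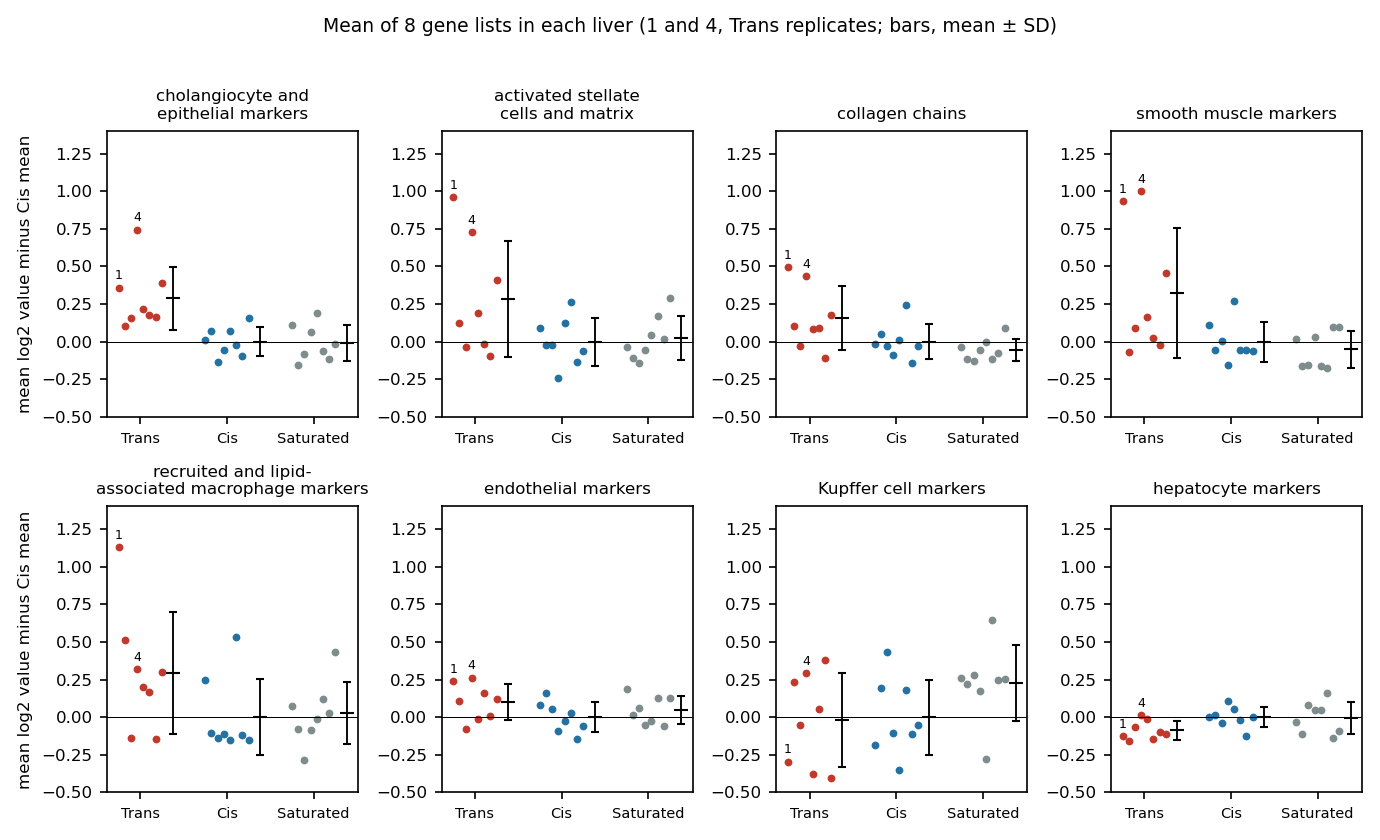
Mean log2 value over the genes of 8 lists, a point per liver, with the average of the Cis livers set to 0 (vertical), for the Trans, Cis and Saturated groups, with bars for the mean ± SD; Trans replicates 1 and 4 are numbered. Stellate, collagen and smooth muscle lists are highest in those 2 livers, whereas 7 of 8 Trans livers exceed every Cis liver in the cholangiocyte and epithelial list, which includes Krt23, Krt8 and Krt18, and 7 of 8 lie below the Cis mean in the hepatocyte list.

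Quiescent stellate cell markers were mixed, with 3 of 9 higher and a median of −0.06. Lrat, which stores vitamin A as retinyl ester, ran from 6.58 to 7.51 in Trans (median 7.11) and from 7.17 to 7.53 in Cis (median 7.39), and 6 Trans livers lay below all Cis livers. Its log2 difference was −0.28 (−0.50 to −0.06, adjusted p = 0.764, limma). Pdgfra, a growth factor receptor of portal fibroblasts and stellate cells, had 0.27 (0.07 to 0.47), and Ngfr, a nerve growth factor receptor of stellate cells, 0.29 (0.02 to 0.55).

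Of 14 endothelial markers 12 were higher in the mean of Trans, with 3 (21.4%, against 3.5% of all genes) at an unadjusted p under 0.05 (limma). The median was 0.09, and 0.04 without Trans replicate 4 and Cis replicates 7 and 8, the 3 livers of lowest correlation with the others. Clec4g, a lectin of sinusoidal endothelium, ran from 8.30 to 8.78 in Trans (median 8.54) and from 8.08 to 8.42 in Cis (median 8.16). All 8 Trans livers lay above the Cis mean, 5 lay above all Cis livers, and the log2 difference was 0.32 (0.15 to 0.49, adjusted p = 0.55, limma). Pecam1, an adhesion protein of endothelium, had 0.24 (0.07 to 0.42) and Tek, a receptor of angiopoietins, 0.19 (0.01 to 0.37), whereas the sinusoidal receptors Stab2 and Lyve1 had 0.06 (−0.08 to 0.19) and 0.05 (−0.38 to 0.47).

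Recruited and resident macrophages were described by separate lists, and the difference between the lists was not tested. Of 11 markers of recruited and lipid-associated macrophages 10 were higher in the mean of Trans and 3 (27.3%, against 3.5% of all genes) passed an unadjusted p of 0.05 (limma), and their median log2 difference was 0.21. Ccr2, the chemokine receptor of monocytes, ran from 2.29 to 3.71 in Trans and from 2.19 to 2.59 in Cis, with 6 Trans livers above all Cis livers, a low signal and a log2 difference of 0.46 (0.12 to 0.80). Cd9, a tetraspanin, had 0.46 (0.07 to 0.85), and Trem2, a lipid-sensing receptor, 0.11 (−0.18 to 0.40). The median of this list was 0.06 without Trans replicate 1, whose list mean was 1.13 against at most 0.51 in the other Trans livers and 0.53 in the highest Cis liver, replicate 6, without which the median was 0.33.

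Of 12 genes listed as markers of Kupffer cells, the resident macrophages of liver, 4 were higher in the mean of Trans. The list includes Xcr1, which is rather a marker of dendritic cells and was of low signal. The list median was −0.05, with a range over the alternatives from −0.12 without Cis replicate 5 to 0.01 without Trans replicate 8. Cd163, a haemoglobin scavenger receptor, had −0.38 (−0.71 to −0.04), and no Trans liver lay above its Cis mean. Clec4f, a lectin restricted to Kupffer cells, had −0.09 (−0.43 to 0.25), and Timd4, a receptor of long-resident Kupffer cells, −0.15 (−0.55 to 0.25). Marco, a scavenger receptor, went against the rest with 0.55 (−0.20 to 1.30). Of 12 lymphocyte and neutrophil markers 8 were higher, the median was 0.05 and 0 passed in either direction, and 0 of them reached a mean signal of 20.

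The plot of all 37 lists sets these groups beside the metabolic ones. Of 6 exocrine pancreas markers 2 were higher, with a median of −0.08, and they included Cela1, an elastase, at −0.34 (−0.68 to −0.01). Adipocyte markers had a median of 0.09 over 6 genes (0.02 without Trans replicate 4) and striated muscle markers 0.02 over 6, with 0 of either at an unadjusted p under 0.05. The list of hepatocyte markers had a median of 0.00, with 7 of 12 higher, but its mean was below the Cis mean in 7 of 8 Trans livers. Its members with the lowest differences were G6pc, Pck1 and Tat, which are also genes of fasting.

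**Figure D5:**
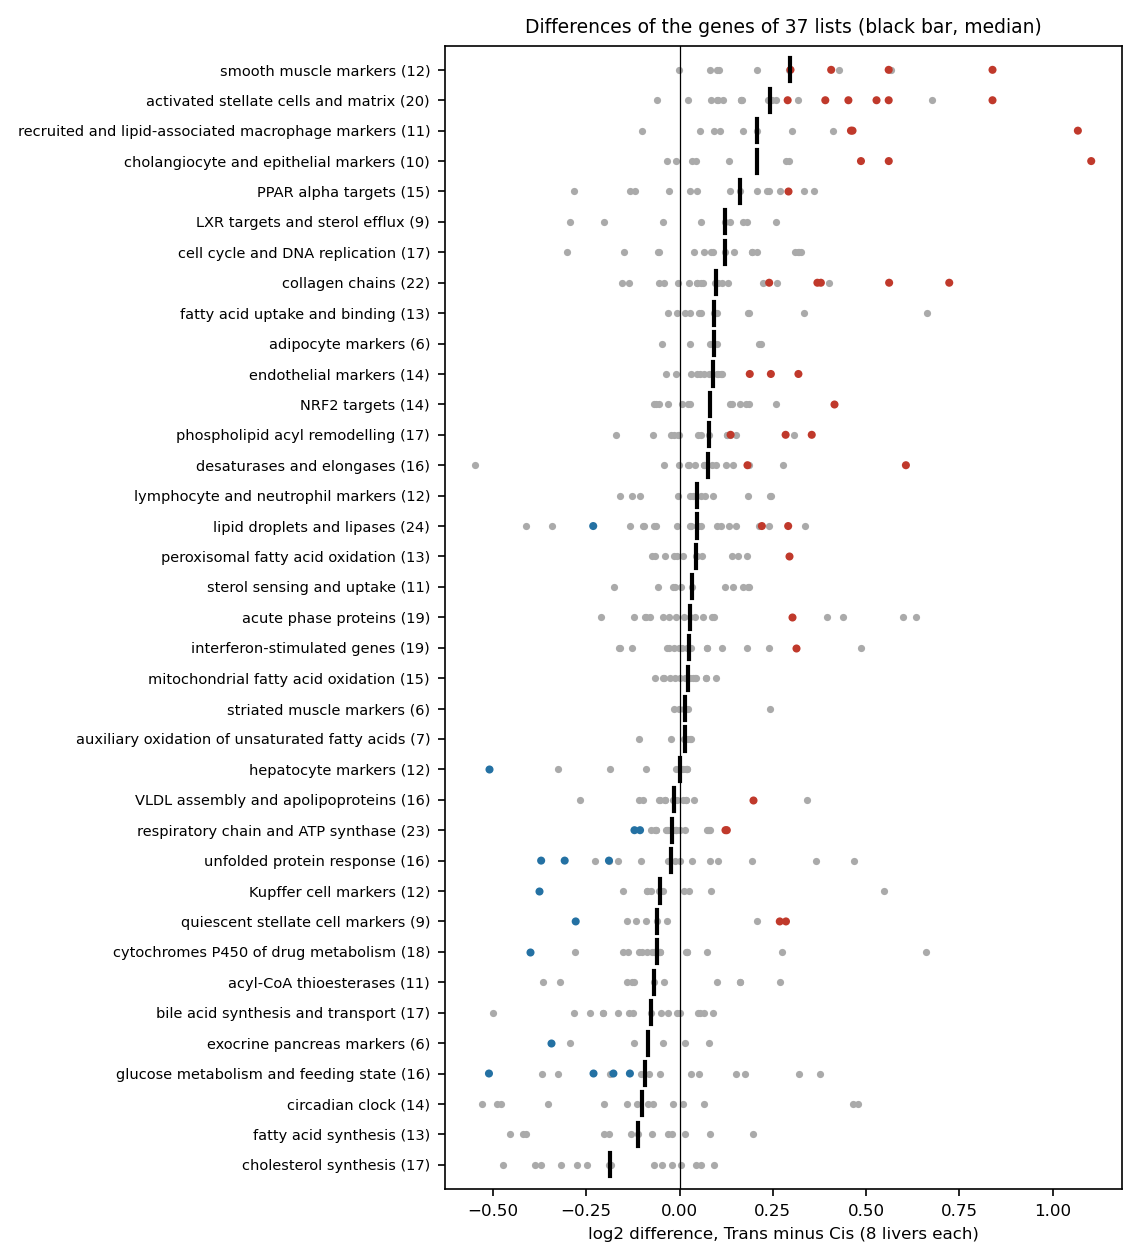
Log2 difference of Trans against Cis for the measured genes of 37 lists (points; number of genes in brackets), ordered by the list median (black bar); red and blue points have an unadjusted p under 0.05 with a higher or lower mean in Trans. Smooth muscle, stellate and matrix, macrophage and epithelial lists are at the top with medians of 0.21 to 0.30, and cholesterol synthesis is at the bottom with −0.19.

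In glucose metabolism some members had a lower mean in Trans. Of 16 measured genes 10 were lower in the mean of Trans, and 4 (25%, against 2.99% of all genes) passed an unadjusted p of 0.05 (limma). The median log2 difference was −0.09, and −0.16 without the 3 livers of lowest correlation. Fbp1, fructose bisphosphatase of gluconeogenesis, ran from 10.53 to 10.82 in Trans (median 10.63) and from 10.80 to 11.04 in Cis (median 10.88). Of the Trans livers 7 lay below all Cis livers, and the log2 difference was −0.23 (−0.35 to −0.11, adjusted p = 0.55, limma).

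G6pc, which releases free glucose, ran from 9.37 to 10.22 in Trans (median 9.74) and from 9.23 to 10.68 in Cis (median 10.53). No Trans liver lay above the Cis mean, although Cis replicate 7 had the lowest value of all, and the log2 difference was −0.51 (−0.92 to −0.10, adjusted p = 0.764, limma). Pygl, the hepatic glycogen phosphorylase, had −0.18 (−0.33 to −0.02), and Igf1, the growth factor that liver secretes, −0.13 (−0.26 to −0.01). Pck1, of gluconeogenesis, had −0.32 (−0.77 to 0.12), and Pklr, of glycolysis, −0.37 (−0.79 to 0.05), so members of opposite pathways had lower means. Igfbp1, a binding protein induced by fasting, had 0.38 (−0.44 to 1.19).

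Clock genes bear on the time of day of collection, which, like the feeding state, is not given in the sources used here. Of 14 clock genes 4 were higher, the median was −0.10, 0 passed an unadjusted p of 0.05 (limma), and the intervals were the widest of all lists, with −0.53 for Per1 (−1.43 to 0.37) and −0.02 for Arntl (−1.08 to 1.05). The part of time or feeding in the glucose genes was not tested.

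Acute phase proteins, which liver secretes in inflammation, were higher in 11 of 19 cases, and their median was 0.03. Orm1, an acid glycoprotein, ran from 10.61 to 10.93 in Trans (median 10.72) and from 10.27 to 10.75 in Cis (median 10.43), with all 8 Trans livers above the Cis mean and a log2 difference of 0.30 (0.15 to 0.45, adjusted p = 0.55, limma). It was the only member at an unadjusted p under 0.05 (5.26% of the list, against 3.5% of all genes). Hp, haptoglobin, had 0.04 (−0.13 to 0.22), and the serum amyloid genes had 0.44 for Saa2 (−0.45 to 1.32), −0.21 for Saa3 (−0.55 to 0.13) and −0.03 for Saa4 (−0.20 to 0.14). In Saa2, Lcn2 and Hp the highest Cis liver was replicate 6 and the highest Trans liver replicate 1.

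In the unfolded protein response 7 of 16 genes were higher, the median was −0.02, and 3 (18.8%, against 2.99% of all genes) passed an unadjusted p of 0.05 on the lower side. Dnajb9, a chaperone partner in the endoplasmic reticulum, ran from 7.42 to 7.91 in Trans (median 7.75) and from 7.94 to 8.34 in Cis (median 8.12), with no overlap. Its log2 difference was −0.37 (−0.65 to −0.09, adjusted p = 0.755, limma), and the Saturated livers, from 7.50 to 8.80, overlapped with both groups. Hspa5, the main chaperone of that compartment, had −0.19 (−0.38 to −0.00), and Creld2, a disulphide isomerase, −0.31 (−0.62 to −0.00). Trib3, a pseudokinase induced by stress, went the other way with 0.47 (−0.04 to 0.97).

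In the remaining lists single genes stood out. Cyp1a2, a drug-metabolizing cytochrome of perivenous hepatocytes, ran from 9.58 to 10.58 in Trans (median 9.98) and from 10.10 to 10.68 in Cis (median 10.40), with 5 Trans livers below all Cis livers. Its log2 difference was −0.40 (−0.67 to −0.13, adjusted p = 0.692, limma), and 12 of 18 cytochromes were lower, with a median of −0.06. Abcc4, an efflux transporter induced by the antioxidant factor NRF2, had 0.41 (0.17 to 0.66) at low signal, whereas Nqo1, a classical target of that factor, had 0.16 (−0.29 to 0.62), and 10 of 14 targets were higher, with a median of 0.08 that was 0.14 without Cis replicate 6 and −0.03 without the 3 livers of lowest correlation.

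Of 19 interferon-stimulated genes 12 were higher, their median was 0.03, and Usp18, which removes ISG15 from proteins, had 0.31 (0.02 to 0.60). Of 17 genes of the cell cycle 13 were higher and 0 passed an unadjusted p of 0.05 (limma), with a median of 0.12 that was 0.04 without Trans replicate 1 and 0.21 without Cis replicate 6. The respiratory chain had 23 genes with a median of −0.02 and a range of −0.12 to 0.13. At an unadjusted p under 0.05 (limma) 2 were higher and 2 lower (8.7% each, against 3.5% and 2.99% of all genes). Atp5c1, a subunit of ATP synthase, had 0.13 (0.03 to 0.23), and Sdhd, a subunit of succinate dehydrogenase, −0.12 (−0.24 to −0.01).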

How the data were processed

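The authors hybridized liver RNA to Affymetrix whole-transcript mouse gene arrays and normalized the scans by RMA. Per the submitters' processing notes the tool was RMA, with no version given. The deposited table holds log2 values from 0.309 to 13.46, with array medians of 2.94 to 3.06, after background correction, quantile normalization and summary by probe set. All 24 columns were used. Of 35556 probe sets, 12457 list no gene and 1881 several; no filter on low signal was applied.

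All 24 livers entered 1 limma model with a mean for each of the 3 diets (limma 3.58.1, R 4.3.3; lmFit, eBayes without trend, 21 residual degrees of freedom). The tests of Trans against Cis were two-sided, p values were adjusted by Benjamini and Hochberg over all probe sets, and an adjusted p under 0.05 made a call. The procedure was tested on simulated data before use. Mean signals are compared with 20 as mean log2 values over the 24 livers with log2 of 20 (4.32). A gene can therefore pass through a group in which it is high. Among the genes chosen by size, Mmp12, Acta2 and Dhrs9 had Cis means under this value. Mmp12 and Acta2 had Saturated means under it as well. Confidence intervals are at the 95% level. The number of arrays limits the precision.

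The 37 lists (560 distinct genes, 499 measured) were written from textbook knowledge, and the lists, the genes and the comparison were chosen with earlier results of these data known, so lists are described by counts and medians without tests. Named genes are those called, the 10 largest higher and 10 largest lower differences among genes with a mean signal over 20, an unadjusted p under 0.05 and a symbol that is no predicted or clone name, up to 4 members of each list with the smallest p and members that go against the rest, up to 10 genes without overlap between the groups and a mean signal over 20, and genes that the study names for liver. Genes outside this rule, chosen after their values were seen, include the microRNA genes, Aopep, Mt3, Mt4, Dnmt1, Dnmt3b, Khnyn, Tifa, Ccdc80, Rdh9, Urad, Rprl3, Depp1, Olfr267 and Alppl2. Further members of the lists, such as Fads1, Fads2 and Lyve1, were also named outside the rule. Alternatives were only the 16 livers, 23 livers, a replicate block, trend and robust estimation, array weights, median centring, quantile normalization again, a filter on low signal, adjustment over single-gene probe sets, the mean over the probe sets of a gene, the methods' Tukey test, each of the 16 livers left out in turn and, chosen after seeing the data, 3 livers left out.

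MicroRNA and promoter sequences are from RefSeq (GRCm38.p6), and are printed for the microRNAs and both metallothionein genes for which entries were found. Coordinates are those of that build, and no coordinates were taken from the arrays.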

Additional observations from a re-analysis of the deposited data

Results flagged for a closer look

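A liver was far from the rest of its group in 16 of 190 groups of 8 examined (37 lists and 58 genes, in both diets). The measure is the gap of the extreme liver to its neighbour as a share of the group's whole range, against a critical value that chance passes in about 1 of 20 groups. Cis replicate 6 was the highest Cis liver in acute phase proteins (share 0.671), NRF2 targets (0.564) and cell cycle genes (0.541), and in Saa2 (0.687), Hp (0.584), Col3a1 (0.545) and Orm1 (0.536). In Saa2 it had a log2 value of 8.86, with 7.00 in the next Cis liver. Cis replicate 7 was the lowest in fatty acid synthesis (0.638), glucose metabolism (0.615) and Hspb1 (0.542), with a mean of −0.97 for fatty acid synthesis relative to the Cis mean, against −0.12 in the next liver. Cis replicate 4 was the highest in cytochromes P450 (0.589), Cis replicate 1 the lowest in the respiratory chain (0.528) and Cis replicate 5 the highest in Acta2 (0.565). Trans replicate 4 was the highest in the epithelial list (0.55), and Trans replicate 1 in Krt8 (0.53) and Srebf2 (0.562).

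The only call fell among the probe sets that name no gene. The called probe set, 10342055, had a log2 difference of −1.39 (adjusted p = 0.0342, limma), with a mean of 2.01 ± 0.28 (SD, n = 8) in Trans and 3.39 ± 0.62 (SD, n = 8) in Cis, a low signal. Its mean over the 24 livers, 2.73, lay under the lowest array median, 2.94, and what it reports is not known here.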

How the results depend on the processing

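The single called probe set, which names no gene, was also the only call with trend and robust estimation, array weights, median centring and renewed quantile normalization. With limma 0 probe sets were called over only the 16 livers, over 23 livers (Saturated replicate 2 not used), among probe sets with a mean signal over 20, and with adjustment over single-gene probe sets, and 0 were called by the methods' Tukey test. Leaving out 1 liver gave 0 to 1 calls. The call was kept without Trans replicate 2, Cis replicate 1 or Cis replicate 7, another unnamed probe set was called without Trans replicate 5, and 0 were called without any of the other 12. Leaving out the 3 livers of lowest correlation (Trans replicate 4, Cis replicates 7 and 8), an alternative chosen after seeing the data, gave 2 calls, both unnamed. No single-gene probe set was called under any of these.

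Genes at an unadjusted p under 0.05 numbered 407 higher and 246 lower with the filter on low signal, 322 and 269 by the Tukey test, and 553 and 628 after median centring, which turned the balance. Genes without overlap numbered 3 with the filter on low signal, where fewer genes were tested, and 59 without the 3 livers of lowest correlation. With 1 liver left out they numbered 7 to 25, the most without Cis replicate 6, and 17 without Trans replicate 4, 15 without Cis replicate 8, 13 without Cis replicate 3, 12 without Trans replicate 5 or 6 and 11 without Cis replicate 5 or 7. Fewer livers make a separation easier by construction.

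The main fit did not pair the livers by replicate number. Correlations of the deviations of equally numbered Trans and Cis livers ran from −0.06 to 0.29, and 0 of 8 livers matched best with its own number. With the replicate block 0 probe sets were called, and 700 genes had a higher and 540 a lower mean at an unadjusted p under 0.05.

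Of the 37 list medians, with the filter on low signal that of the epithelial list was 0.49 (the value of Krt18), that of the collagen chains 0.24 (0.06 without the 3 livers) and that of smooth muscle 0.10. Medians near 0 changed sign over the alternatives, with a range of −0.09 to 0.03 for quiescent stellate markers (0.03 without the 3 livers), −0.03 to 0.14 for NRF2 targets, −0.12 to 0.01 for Kupffer cell markers, −0.11 to 0.01 for pancreas markers, −0.02 to 0.09 for interferon-stimulated genes and −0.02 to 0.04 for auxiliary oxidation. Those of hepatocyte markers, striated muscle, the unfolded protein response, acute phase proteins and the respiratory chain changed sign too. Others kept their sign but moved, from 0.01 to 0.07 in peroxisomal oxidation, 0.00 to 0.08 in lipid droplets (the lowest with array weights), −0.18 to −0.06 in clock genes and −0.25 to −0.05 in fatty acid synthesis.

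Acta2, Alas1, Angptl8, Scarna13 and Depp1 lost an unadjusted p under 0.05 in at least 7 of 27 alternatives each, with p up to 0.138 for Acta2 and 0.527 for Scarna13 (limma or Tukey), and Mt3 in 11 of 26, with p up to 0.169. Without the 3 livers of lowest correlation the unadjusted limma p was 0.124 for Scd2, 0.12 for Col3a1, 0.0848 for Mmp12, 0.0775 for Mt1, 0.0705 for Mt2, 0.0715 for S100a11 and 0.0519 for Dhrs9. By the Tukey test Mt1, Mt2, Mmp12 and Col3a1 also missed 0.05.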
